A study of Mus musculus with 9 samples.

Results

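The S100 proteins of monocytes are described here through the read counts of 8 genes, S100a1, S100a4, S100a6, S100a8, S100a9, S100a10, S100a11 and S100a13. The genes were chosen by their symbols, as members of the family listed for these sorted cells, and they are 8 of the 23238 gene symbols in the count tables. RNA of sorted monocytes was sequenced from the 3ʹ end of the transcripts in 9 libraries. All mice were wild-type C57BL/6N females of 12 weeks, and every library held the cells of a pool of 5 mice. Sampling was on day 1, counted from the injection of the NMO mice. The 3 groups had 3 libraries each. Nor_Bl_mono were blood monocytes of normal mice, which the paper describes as non-treated. NMO_Bl_mono and NMO_Br_mono were blood and brain monocytes of mice with a model of neuromyelitis optica (NMO), an autoimmune disease in which antibodies against the water channel aquaporin 4 damage astrocytes. In these mice NMO-IgG, the antibody of patients, was infused into the striatum of 1 side together with human complement. No group here had control IgG. So surgery, complement and NMO-IgG cannot be told apart in the comparisons with Nor_Bl_mono. The cells of all groups were sorted as CD45+, CD11b+, P2ry12-, Ly6C+ and Ly6G-, so microglia and neutrophils were gated out by surface protein. Blood mononuclear cells came from a density gradient and brain cells from enzyme-treated tissue spun in Percoll, so organ and isolation cannot be told apart in these groups.

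S100 proteins are small calcium-binding proteins with paired EF-hand motifs, and most of them work as dimers. S100A8 and S100A9 form calprotectin, which neutrophils and inflammatory monocytes hold in large amounts in the cytosol and release at sites of injury, where it binds zinc and manganese and signals through Toll-like receptor 4 and RAGE. S100A4, S100A6, S100A10 and S100A11 act mainly inside cells on myosin, annexins and the cell membrane, and they are abundant in motile and myeloid cells.

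All 8 genes lie on chromosome 3. In mouse build GRCm38 (mm10, the build in the submitters' processing notes), with GENCODE gene models, S100a1 (chr3:90511034-90514392, minus strand) and S100a13 (chr3:90514435-90524581, plus strand) begin 42 bases apart and run in opposite directions. They are followed by S100a4 (chr3:90603771-90606045, plus strand), S100a6 (chr3:90612882-90624181, plus strand), S100a8 (chr3:90668978-90670035, plus strand) and S100a9 (chr3:90692632-90695721, minus strand). These 6 genes span 184.7 kb. S100a11 (chr3:93520488-93526287, plus strand) and S100a10 (chr3:93555080-93564643, plus strand) lie 2.82 Mb further on. S100a8 and S100a9 stand 22.6 kb apart and are read in opposite directions.

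The libraries held between 7584649 and 10419647 counts. Levels are given as CPM, the count of a gene over a common library size, with TMM scaling. The expression filter of edgeR kept 10107 genes, all 8 S100 genes among them. CPM was not divided by transcript length, because each transcript is read near its 3ʹ end. A count of 3, taken as the floor of a library, was between 0.273 and 0.432 CPM, which covers counting error only. Of the genes that reached 50 CPM in the remaining libraries of its group, 22.3% were at or under this floor in NMO_Bl_mono replicate 3, 8.26% in NMO_Br_mono replicate 2 and no more than 1.94% in any of the other 7 libraries. The common dispersion of the fit was 2.87, a spread between replicates that is much wider than counting error. Markers of classical monocytes were present in every library. In NMO_Br_mono, Ccr2 was measured at 1297, 786 and 1133 CPM, Vcan at 1079, 457 and 239 CPM, and Ly6c2, which encodes Ly6C, at 437, 59.4 and 199 CPM. Ly6c2 was lower in every brain library than in every blood library. Its mean was 232 CPM in NMO_Br_mono, 632 in NMO_Bl_mono and 773 in Nor_Bl_mono. So was Ptprc, which encodes CD45, with means of 735, 1612 and 1528.5 CPM in these groups. Against NMO_Bl_mono, 3 of 12 classical markers, Ccr2 among them, were higher without overlap and 1 was lower, beside 12.3% of all genes.

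The question of the first comparison was how monocytes in the injured brain differ from those left in the blood of the same model. The fitted levels of 6 of the 8 S100 genes were higher in NMO_Br_mono than in NMO_Bl_mono, where 51.4% of all genes tested were higher. Among these 6, S100a8 and S100a9 had the largest fitted changes. S100a8 had 450.3 ± 336 CPM in NMO_Br_mono and 69.5 ± 69.3 CPM in NMO_Bl_mono (SD, n = 3 libraries), and S100a9 had 390.4 ± 293 CPM and 54.2 ± 64.8 CPM. S100a11 had 577 ± 373 CPM and 298 ± 99.1 CPM. S100a1 and S100a13 had lower fitted levels in NMO_Br_mono. The fitted log2 fold change of S100a4 (0.12) turned to -0.040 with library sizes alone, and that of S100a13 (-0.47) to 0.94 without NMO_Bl_mono replicate 3 and NMO_Br_mono replicate 2, the libraries with most genes at the floor. With edgeR's quasi-likelihood test, 0 of 8 genes passed an adjusted p of 0.05, where 0.247% of all genes tested did, and 0 of 8 passed an unadjusted p of 0.05 with a fold change of 1.2, where 5.32% of all genes did. After adjustment DESeq2 called 0 of 8, beside 3.32% of all genes, and limma-voom 0 of 8, beside 0.505%. At the unadjusted threshold with the same fold change DESeq2 called 2 of 8, beside 9.44% of all genes, and limma-voom 4 of 8, beside 12.6%. In TMM-scaled CPM the groups did not overlap for 2 of 8 genes, beside 12.3% of all genes. S100a8 was higher in every NMO_Br_mono library, and S100a1 was lower in each of them. The median log2 fold change was 0.57 over the 8 genes and 0.05 over all genes tested.

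NMO_Br_mono against Nor_Bl_mono sets brain monocytes of the model against blood monocytes of normal mice. It shares its brain libraries with the first comparison, so their results are not independent. S100a8 had a mean of 18.8 ± 10.3 CPM in Nor_Bl_mono and S100a9 a mean of 26.2 ± 24.6 CPM. The log2 fold change was 4.58 (standard error, SE, 1.54) for S100a8, 3.90 (SE 1.65) for S100a9 and 1.54 (SE 0.51) for S100a11. In the edgeR fit these genes had an unadjusted p of 0.00993, 0.0333 and 0.00946. They were the 3 of 8 that passed the unadjusted threshold with a fold change of 1.2, beside 5.82% of all genes, and 6 of 8 had a higher fitted level in NMO_Br_mono, beside 46.3% of all genes. After adjustment over all genes 0 of 8 passed, with adjusted p = 0.624, 0.708 and 0.609 in edgeR, where 0.247% of all genes passed. DESeq2 called 1 gene after adjustment, S100a8 (adjusted p = 0.0107), beside 3.62% of all genes, and limma-voom called 0 of 8, beside 0.327%. Every NMO_Br_mono library lay above every Nor_Bl_mono library for S100a6, S100a8, S100a9 and S100a11, and below for S100a1, 5 of 8 genes beside 15.4% of all genes.

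Between the blood groups, NMO_Bl_mono against Nor_Bl_mono sets circulating monocytes of the model, with its surgery and infusion, against those of non-treated mice. The fitted level was higher in NMO_Bl_mono for 7 of 8 S100 genes, beside 42.4% of all genes. The log2 fold changes lay between -0.11 for S100a10 and 1.88 for S100a8 (SE 1.37), and the median was 0.51 beside -0.16 over all genes tested. In the edgeR fit 0 of 8 genes passed after adjustment (adjusted p = 1 for each), as did 0% of all genes, and 0 of 8 had an unadjusted p under 0.05 with a fold change of 1.2, beside 0.712% of all genes. After adjustment 0 of 8 were called by DESeq2, beside 0.683% of all genes, and by limma-voom, beside 0%. At the unadjusted threshold 0 of 8 were called by DESeq2, beside 2.4%, and by limma-voom, beside 4.82%. The groups overlapped for all 8 genes, beside 6.8% of all genes whose groups did not.

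**Figure D1:**
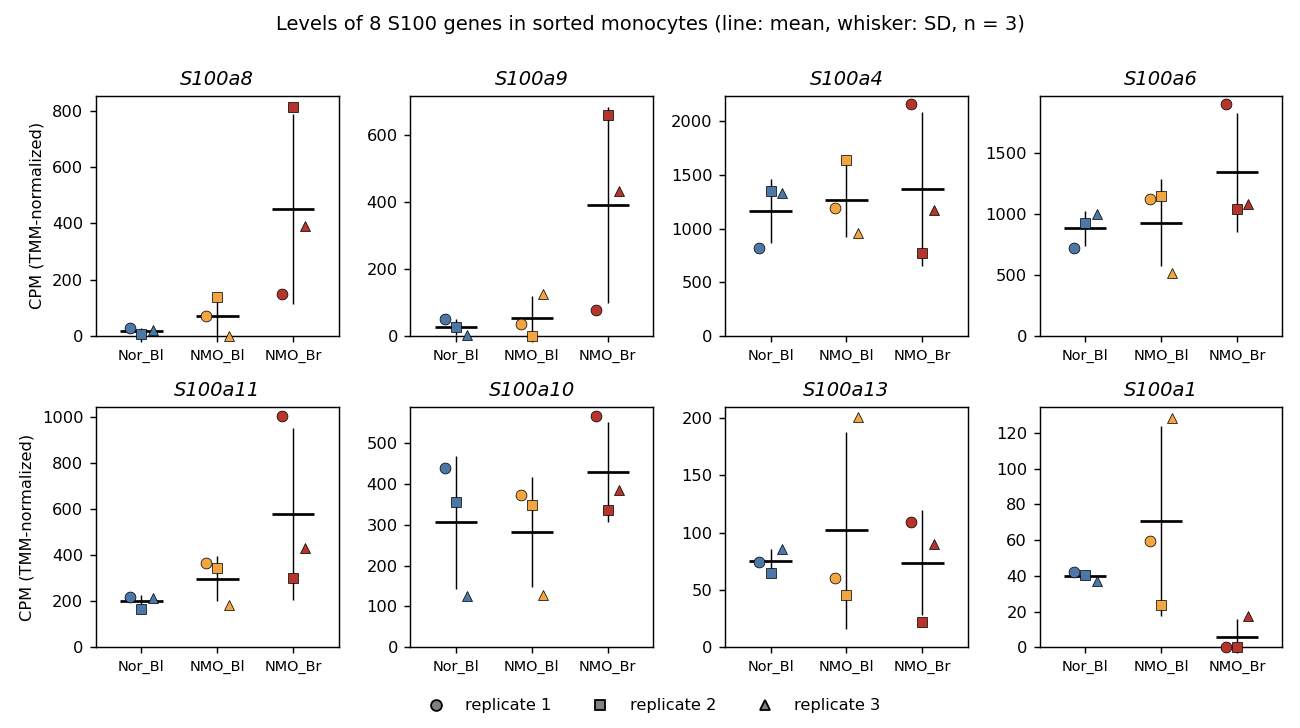
Level of each S100 gene in TMM-scaled CPM (y axis, starting at 0) in the 3 groups (x axis), with a point for each library, its shape giving the replicate number, a line at the mean and a whisker of 1 SD, cut at 0. S100a8 lies between 148 and 813 CPM in brain monocytes and does not exceed 139 CPM in blood, while the points of S100a4 and S100a13 are intermixed.

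**Figure D2:**
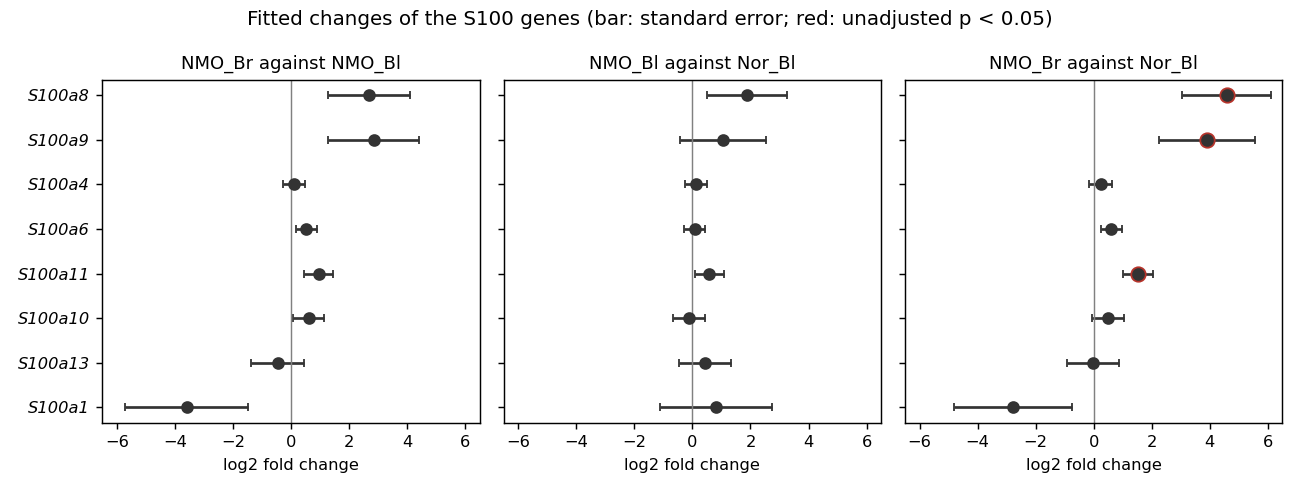
Fitted log2 fold change (x axis) of the 8 S100 genes (y axis) in the 3 comparisons, with the standard error of the edgeR fit as a bar. S100a8, S100a9 and S100a11, drawn in red, have an unadjusted p under 0.05 in NMO_Br against Nor_Bl, and no point is red in the other panels.

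S100a8 encodes the calprotectin subunit also called MRP8. It was measured at 28.5, 7.93 and 20.1 CPM in the Nor_Bl_mono libraries, at 69.9, 139 and 0 CPM in NMO_Bl_mono, and at 148, 813 and 389.9 CPM in NMO_Br_mono. In TMM-scaled CPM all 3 brain libraries were above all 6 blood libraries, and NMO_Br_mono replicate 1 exceeded the highest blood library by little. Over library sizes alone, NMO_Br_mono replicate 1 (126 CPM) lay below NMO_Bl_mono replicate 2 (139 CPM), so the groups of the NMO mice overlapped. In rank among the genes tested, S100a8 moved from percentiles of 27.9 to 54.8 in Nor_Bl_mono to percentiles of 90.5 to 99.2 in NMO_Br_mono. Against NMO_Bl_mono the log2 fold change was 2.70 (SE 1.41, edgeR adjusted p = 0.802). It was 3.70 without NMO_Bl_mono replicate 2 and 1.97 without NMO_Br_mono replicate 2. The adjusted p against Nor_Bl_mono moved between settings, and the cause was not tested. With edgeR this adjusted p was 0.0118 without NMO_Bl_mono replicate 3, 0.0282 without that library and NMO_Br_mono replicate 2, and 3.54e-05 with no filter on low counts, against 0.624 over all libraries. It was 0.0506 with only the groups compared and 0.659 with the robust fit. NMO_Bl_mono replicate 3 is not in this comparison, but all 9 libraries share an estimate of the spread. The log2 fold change was 4.58 (SE 1.54) over all libraries. It was 4.59 without NMO_Bl_mono replicate 3 (SE 0.71) and with only the groups compared (SE 0.75).

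S100a9 encodes the partner subunit MRP14. Its levels were 50.9, 26.0 and 1.63 CPM in Nor_Bl_mono, 36.6, 0 and 126 CPM in NMO_Bl_mono, and 78.8, 659.5 and 433 CPM in NMO_Br_mono. The brain libraries were above all Nor_Bl_mono libraries, but NMO_Br_mono replicate 1 lay below NMO_Bl_mono replicate 3, so the groups of the NMO mice overlapped. The log2 fold change against NMO_Bl_mono was 2.85 (SE 1.57, edgeR adjusted p = 0.834), and 4.43 without NMO_Bl_mono replicate 3. Against Nor_Bl_mono it had an adjusted p of 0.00219 in edgeR with no filter on low counts, where the main fit gave 0.708.

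Counts of the pair were closer to each other in the brain libraries than in most blood libraries. S100a8 and S100a9 had 1310 and 697 counts in NMO_Br_mono replicate 1, 8547 and 6934 in replicate 2, and 3919 and 4350 in replicate 3, which gave ratios of S100a8 to S100a9 of 1.88, 1.23 and 0.901. In Nor_Bl_mono the ratios were 0.559, 0.305 and 12.3, the last from 197 and 16 counts. In NMO_Bl_mono the counts were 499 and 261 in replicate 1, 1274 and 0 in replicate 2, and 0 and 1386 in replicate 3. So in these last libraries of NMO_Bl_mono a gene of the pair was missing while the other had over 1000 counts, and it was not the same gene. The mean log2 ratio, with 0.5 counts added to each gene, was 0.35 ± 0.53 in NMO_Br_mono, 0.27 ± 11.4 in NMO_Bl_mono and 0.35 ± 2.84 in Nor_Bl_mono (SD, n = 3). The mean of NMO_Bl_mono averages large values of opposite sign that the added counts set, and it lay between -5.25 and 6.12 with 1 library left out. With 3 against 3 libraries a two-sided exact permutation test cannot give a p under 0.1, so it could not separate these means (p = 1 in each of 3 comparisons, also after adjustment). The spread of the ratio was not tested. The floor was 0.326 CPM for S100a9 in NMO_Bl_mono replicate 2 and 0.273 CPM for S100a8 in replicate 3. It covers counting error only, and the spread between replicates was wider, so it sets no upper bound on these levels. In replicate 3, 22.3% of the genes at 50 CPM in the remaining libraries of the group were at or under the floor.

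The stretch before the start of these genes is shown because they are the pair with the largest positive fitted changes in brain against blood monocytes. The sequences are the 250 bases before the RefSeq start of each gene in GRCm38.p6, at chr3:90668821-90669070 on the plus strand for S100a8 and at chr3:90695722-90695971 on the minus strand for S100a9, written 5ʹ to 3ʹ along the gene. The GENCODE model of S100a8 given above begins earlier, at chr3:90668978, so the last part of its stretch lies within that model. Capitals mark TATAAA, the TATA box,, GAGGAA, a core of PU.1 sites, and TTGCNNAA, a core of C/EBP sites, on either strand.
S100a8: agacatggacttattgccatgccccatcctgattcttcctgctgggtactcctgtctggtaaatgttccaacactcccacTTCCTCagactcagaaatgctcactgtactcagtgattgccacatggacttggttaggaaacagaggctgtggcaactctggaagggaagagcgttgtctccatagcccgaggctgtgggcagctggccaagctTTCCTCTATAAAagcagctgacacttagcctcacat
S100a9: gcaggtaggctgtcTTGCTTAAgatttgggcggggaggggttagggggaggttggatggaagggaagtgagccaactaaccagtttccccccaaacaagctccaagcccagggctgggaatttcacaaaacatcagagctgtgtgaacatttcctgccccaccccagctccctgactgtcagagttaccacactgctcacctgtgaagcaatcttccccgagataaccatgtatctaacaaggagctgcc
In S100a8, TATAAA lies at bases -30 to -25, counted from the annotated start as 0, and the letters of GAGGAA occur on the other strand at -36 to -31 and at -170 to -165. In S100a9, TTGCTTAA lies at -236 to -229, and TATAAA lies at bases 0 to 5, just past the end of the stretch shown. In windows of 300 bases (250 before and 50 after the start) 7 of the 8 S100 genes had a sequence. TATAAA was in 3 of these 7 (S100a4, S100a8 and S100a9) and in 13.6% of 32851 mouse windows, GAGGAA in 3 (S100a4, S100a8 and S100a11) and in 28.3%, and TTGCNNAA in 1 (S100a9) and in 10.8%. TGANTCA, the AP-1 site, was in 1 window (S100a11, at 2 places) and in 7.81% of all windows. ACGTG, the core of the hypoxia response element, was in 2 (S100a6 and S100a11), each time as a site that reads the same on both strands, and in 19.6% of all windows. These are matches of letters and say nothing of binding.

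Neutrophils hold the most S100a8 and S100a9 of all blood cells, so their other genes were read in the same libraries. Ly6g had no entry under that symbol in the count tables, so it could not be read. Over 21 other neutrophil markers the summed level was 154 to 297 CPM in Nor_Bl_mono, 100.4 to 313 CPM in NMO_Bl_mono and 311 to 895 CPM in NMO_Br_mono. NMO_Br_mono replicate 1 lay below the highest blood library in this sum, and the other brain libraries lay above all blood libraries. Of the 21 markers, 6 to 9 were above the floor in Nor_Bl_mono, 2 to 12 in NMO_Bl_mono and 10 to 11 in NMO_Br_mono. In NMO_Br_mono against NMO_Bl_mono, 8 of 12 tested markers had a higher fitted level, beside 51.4% of all genes, and 4 a lower. Without overlap 3 were higher, beside 12.3% of all genes without overlap. Single genes of the list went different ways. Mpo, Camp and Elane had means of 57.0, 44.8 and 17.4 CPM in NMO_Br_mono and 0, 1.63 and 0.597 CPM in NMO_Bl_mono. In Nor_Bl_mono they had 3.50, 8.20 and 0.911 CPM, and for each of them the brain libraries overlapped both blood groups. Ngp and Lcn2, which encode granule proteins, were at 57.8, 244.7 and 102 CPM and at 54.3, 144 and 70.8 CPM in NMO_Br_mono, above all blood libraries. Wfdc21 was at 16.1, 121.7 and 30.4 CPM there, above NMO_Bl_mono and overlapping Nor_Bl_mono. Prtn3, which encodes a protease of the azurophil granules, had 7.01, 62.9 and 27.7 CPM in NMO_Br_mono and its highest value, 99.5 CPM, in NMO_Bl_mono replicate 3. Mmp8, a collagenase, overlapped between all groups, with 62.0, 34.0 and 131 CPM in NMO_Br_mono, and so did Csf3r, the G-CSF receptor, with 2.37, 38.7 and 0 CPM. Retnlg was at 0 in all 3 NMO_Br_mono libraries and between 0 and 125 CPM in blood. Mmp9 was above 0 in 1 library, NMO_Bl_mono replicate 1, and Cxcr2 was at most at 0.565 CPM in any library. The part of granulocyte RNA in the levels of S100a8 and S100a9 was not tested. In sorted bulk cells, more cells of a type and more RNA in each cell cannot be told apart.

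**Figure D3:**
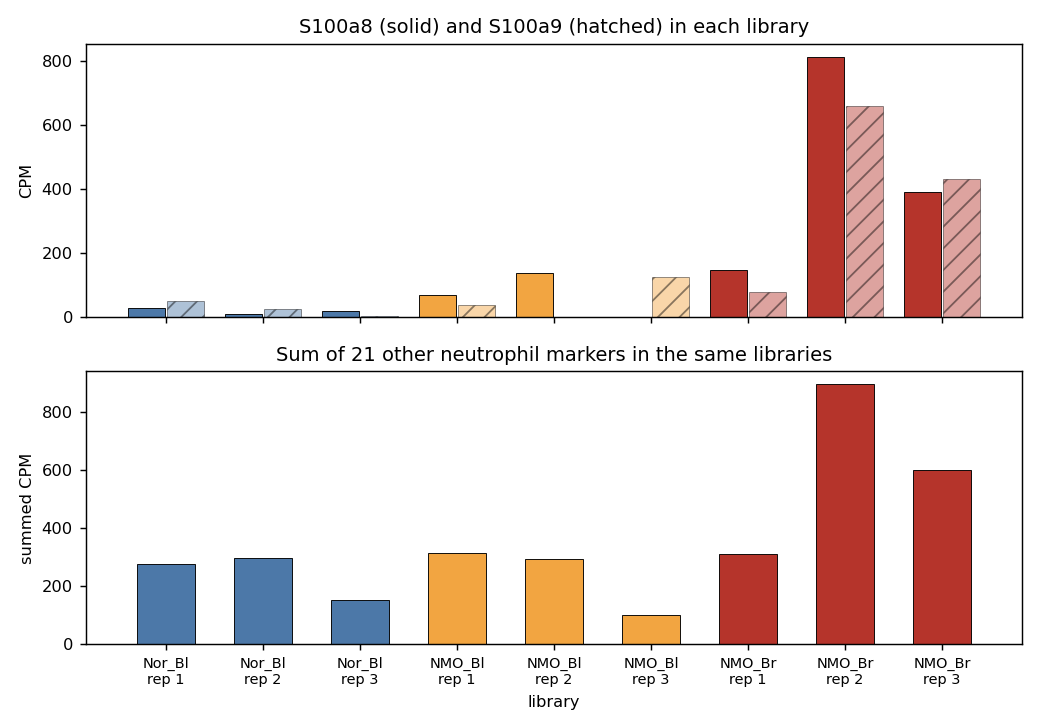
Upper panel, CPM of S100a8 (solid bars) and S100a9 (hatched bars) in each of the 9 libraries (x axis, coloured by group). Lower panel, summed CPM of the 21 other neutrophil markers of the list in the same libraries, which is 311, 895 and 602 in NMO_Br_mono replicates 1, 2 and 3 and at most 313 in blood.

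Microglia were also gated out, and their markers moved with the brain group. Over 10 markers the summed level was 439 to 721 CPM in NMO_Br_mono and 0 to 74.1 CPM in the blood groups. Fcrls was at 52.7, 77.5 and 50.5 CPM in NMO_Br_mono and 0 in every blood library. The 10 markers of astrocytes and other brain cells summed to 89.1, 0 and 96.1 CPM in NMO_Br_mono and to at most 48.3 CPM in blood. Slc1a2, a glutamate transporter of astrocytes, was at 32.3, 0 and 7.86 CPM in NMO_Br_mono, and Cldn5, of endothelial tight junctions, at 33.0, 0 and 59.99 CPM, both at 0 in every blood library. Aqp4 was at 0 in all 9 libraries, and Gfap was above 0 in NMO_Br_mono replicate 3 alone. Blood libraries in turn held transcripts of NK cells, platelets and red cells. Gzma lay between 1123 and 1811 CPM in blood and between 4.30 and 163 CPM in NMO_Br_mono, and the summed globin and heme genes reached 5403 CPM in blood and 402 CPM in NMO_Br_mono. The part of these cells in the S100 levels was not tested.

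S100a4, which binds non-muscle myosin and is tied to cell motility, was the highest of the 8 genes in every group by its mean CPM. It was measured at 817, 1347 and 1330 CPM in Nor_Bl_mono, at 1195, 1641 and 957 CPM in NMO_Bl_mono, and at 2162, 774 and 1171 CPM in NMO_Br_mono. The 3 groups overlapped, and NMO_Br_mono held both the highest and the lowest library. The log2 fold change of NMO_Br_mono was 0.12 (SE 0.38) against NMO_Bl_mono and 0.23 (SE 0.38) against Nor_Bl_mono.

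S100a6, or calcyclin, binds annexins and the ubiquitin-ligase partner CacyBP. Its levels were 723, 921 and 997 CPM in Nor_Bl_mono, 1119.8, 1146 and 514 CPM in NMO_Bl_mono, and 1899, 1039 and 1080.2 CPM in NMO_Br_mono. The brain libraries were all above Nor_Bl_mono, by a log2 fold change of 0.60 (SE 0.37, edgeR adjusted p = 0.880), and overlapped NMO_Bl_mono. S100a4 and S100a6 stood between the percentiles 98.8 and 99.9 of the genes tested in every library. S100a4 was above S100a6 in 8 of 9 libraries, by 1.07 to 1.86 times, and below it in NMO_Br_mono replicate 2, at 0.745 times.

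S100a11, which binds annexin A1 and takes part in membrane repair, had its lowest mean in normal blood. It was measured at 217, 166 and 214 CPM in Nor_Bl_mono, at 365, 345 and 184 CPM in NMO_Bl_mono, and at 1001, 299 and 430.3 CPM in NMO_Br_mono. All brain libraries were above all Nor_Bl_mono libraries, and NMO_Br_mono replicate 2 lay within the range of NMO_Bl_mono. The log2 fold change against NMO_Bl_mono was 0.95 (SE 0.50, edgeR adjusted p = 0.802). Without NMO_Br_mono replicate 1, the library with the highest level, it was 0.29, and against Nor_Bl_mono it was 0.87 where the full fit gave 1.54.

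S100a10, or p11, does not bind calcium and forms a tetramer with annexin A2 that holds plasminogen at the cell surface. Its levels were 438, 355 and 125 CPM in Nor_Bl_mono, 372, 348 and 127 CPM in NMO_Bl_mono, and 566, 335 and 385 CPM in NMO_Br_mono. The lowest values were those of replicate 3 in both blood groups, and the groups overlapped. The log2 fold change of NMO_Br_mono was 0.60 (SE 0.55) against NMO_Bl_mono and 0.49 (SE 0.55) against Nor_Bl_mono.

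S100a13, which takes part in the release of fibroblast growth factor 1 without a signal peptide, varied more in the NMO groups than in normal blood. It was at 74.8, 64.6 and 85.8 CPM in Nor_Bl_mono, at 60.1, 45.3 and 200.6 CPM in NMO_Bl_mono, and at 109, 21.7 and 90.4 CPM in NMO_Br_mono. The coefficient of variation was 14.2% in Nor_Bl_mono, 84.1% in NMO_Bl_mono and 62.5% in NMO_Br_mono, and the highest and the lowest value came from the libraries with most genes at the floor. Fgf1 was at 0 in all 9 libraries.

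S100a1, known best as a calcium sensor of muscle, was the lowest of the 8 genes in brain monocytes. It was measured at 42.1, 40.3 and 37.3 CPM in Nor_Bl_mono, at 59.7, 23.6 and 128 CPM in NMO_Bl_mono, and at 0, 0 and 17.4 CPM in NMO_Br_mono. Every brain library was below every blood library. The Nor_Bl_mono libraries agreed within a coefficient of variation of 6.14%. The log2 fold change was -3.60 (SE 2.12, edgeR adjusted p = 0.893) against NMO_Bl_mono and -2.78 (SE 2.04, adjusted p = 1) against Nor_Bl_mono. Without NMO_Br_mono replicate 3, the brain library with counts of the gene, all brain values were 0 and the fitted value gives no bound. S100a13, which begins 42 bases away, had a log2 fold change of -0.02 (SE 0.90) against Nor_Bl_mono.

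By mean CPM, and with each gene read near its 3ʹ end, the order in Nor_Bl_mono was S100a4, S100a6, S100a10, S100a11, S100a13, S100a1, S100a9 and S100a8. The ranges of neighbours overlapped for S100a4 and S100a6, for S100a10 and S100a11, and among S100a1, S100a9 and S100a8, and did not overlap at the other steps. In NMO_Bl_mono the order was S100a4, S100a6, S100a11, S100a10, S100a13, S100a1, S100a8 and S100a9, and only the step from S100a6 to S100a11 was free of overlap. In NMO_Br_mono it was S100a4, S100a6, S100a11, S100a8, S100a10, S100a9, S100a13 and S100a1. There the steps from S100a6 to S100a11 and from S100a13 to S100a1 were free of overlap. S100a8 thus stood at the bottom in normal blood and in the middle of the family in the brain. It ranked 3 without NMO_Br_mono replicate 1 and 5 without replicate 2.

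The 8 genes summed to 2710.0 ± 282 CPM in Nor_Bl_mono, 3068 ± 748 CPM in NMO_Bl_mono and 4635 ± 1152 CPM in NMO_Br_mono (SD, n = 3). S100a4 and S100a6 made up 74.9% of this sum in Nor_Bl_mono, 70.6% in NMO_Bl_mono and 56.8% in NMO_Br_mono. S100a8 and S100a9 made up 1.75%, 4.21% and 20.6%. In NMO_Br_mono that last share was 3.81% in replicate 1, 37.4% in replicate 2 and 20.6% in replicate 3, so the mean of the group does not describe its libraries.

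**Figure D4:**
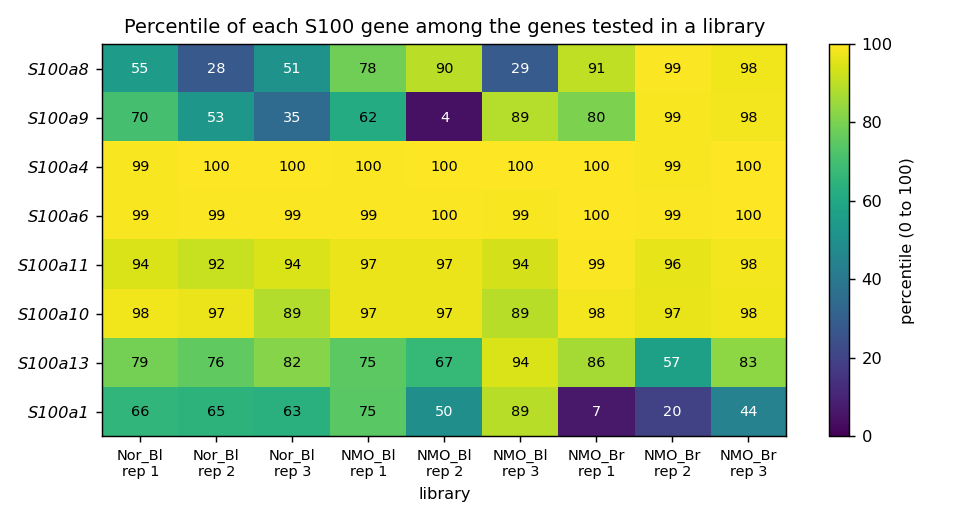
Percentile (0 to 100, number and colour) of each S100 gene (rows) among the genes tested in each of the 9 libraries (columns), by TMM-scaled CPM. S100a4 and S100a6 are at 98.8 or above in every column, and S100a8 is at 90.5 or above in the 3 NMO_Br columns and at 89.7 or below in the others.

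Of 10 further S100 genes looked for, 9 were listed, and they were almost absent. S100a2, S100a3, S100a5, S100a7a, S100a14 and S100z had no count in any library, and S100a16 was at 4.18 CPM in NMO_Br_mono replicate 1 alone. S100b, the S100 gene of astrocytes and oligodendrocytes, was at 17.2, 0 and 4.48 CPM in NMO_Br_mono and at 0 in all blood libraries. Its mean in NMO_Br_mono was 21.3-fold the mean floor of NMO_Bl_mono, a floor that covers counting error only. S100g was at 115 CPM in NMO_Bl_mono replicate 3, at 4.20 CPM in replicate 1 of that group, at 8.38 CPM in Nor_Bl_mono replicate 3 and at 0 in the other 6 libraries. It had an unadjusted p of 0.0298 in NMO_Br_mono against NMO_Bl_mono (adjusted p = 0.802 in edgeR), where 1 library held nearly all of its counts.

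The receptors and adaptors through which extracellular S100 proteins act were measured as well. Of 8 genes listed 7 were tested, and 6 had a higher and 1 a lower fitted level in NMO_Br_mono than in NMO_Bl_mono, with a median log2 fold change of 1.70, beside 51.4% higher and a median of 0.05 over all genes. None of the 7 passed an unadjusted p of 0.05 in any comparison, where 5.32% of all genes did against NMO_Bl_mono. Cd14, which helps TLR4 bind its ligands, was at 714, 684 and 680.2 CPM in NMO_Br_mono, at 239, 399.6 and 0 CPM in NMO_Bl_mono, and at 198, 286 and 96.4 CPM in Nor_Bl_mono. The brain libraries lay close together and above all 6 blood libraries. Its log2 fold change was 1.70 (SE 1.33, edgeR adjusted p = 1) against NMO_Bl_mono. Tlr4 itself was at 20.0, 0 and 3.48 CPM in NMO_Br_mono and at 0 in all blood libraries. Ly96, which encodes the TLR4 partner MD-2, was at 8.48, 108.9 and 8.56 CPM in NMO_Br_mono and at most at 5.18 CPM in NMO_Bl_mono, but reached 19.2 CPM in Nor_Bl_mono. Ager, which encodes RAGE, was at 0 in 5 of the 9 libraries and reached 30.6 CPM in Nor_Bl_mono replicate 1. Myd88, the adaptor downstream of TLR4, was at 221, 261 and 104.5 CPM in NMO_Br_mono, while Nor_Bl_mono had 103, 61.9 and 2.76 CPM, without overlap but by little. Of the 7 tested genes 2 were higher in NMO_Br_mono without overlap against NMO_Bl_mono, beside 12.3% of all genes without overlap. Against Nor_Bl_mono 2 were, beside 15.4% of all genes.

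For the intracellular partners the median lay on the other side of 0. Of 14 genes 12 were tested, 4 with a higher and 8 with a lower fitted level in NMO_Br_mono than in NMO_Bl_mono, where 51.4% of all genes were higher, and a median log2 fold change of -0.46 beside 0.05 over all genes. Again 0 of 12 had an unadjusted p under 0.05 in edgeR, beside 5.32% of all genes. Myh9, the heavy chain of non-muscle myosin that S100A4 binds, was at 729, 561 and 633 CPM in NMO_Br_mono, below all NMO_Bl_mono libraries (969.5, 1054 and 844 CPM) and all Nor_Bl_mono libraries. Its log2 fold change was -0.58 (SE 0.30, edgeR adjusted p = 0.802). Ahnak, a large scaffold that S100A10 and annexin A2 bind, was at 1086, 992 and 1001 CPM in NMO_Br_mono and between 1178 and 1776 CPM in blood, also without overlap. Of the 12 tested partners 4 were lower in NMO_Br_mono without overlap against NMO_Bl_mono, beside 12.3% of all genes without overlap. Against Nor_Bl_mono 3 were, beside 15.4% of all genes. Anxa2, the partner of S100A10, had 1319, 666 and 644 CPM in NMO_Br_mono, and NMO_Bl_mono had 815, 1052 and 429 CPM (log2 fold change 0.19, SE 0.43). Cacybp, the partner of S100A6, was at 19.0, 25.0 and 20.0 CPM in NMO_Br_mono. The NMO_Bl_mono libraries held more, 53.2, 47.0 and 65.5 CPM, but Nor_Bl_mono held a library at 0.

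Calprotectin carries arachidonic acid to the NADPH oxidase of phagocytes. All 6 oxidase genes were tested, and 0 had an unadjusted p under 0.05 in NMO_Br_mono against NMO_Bl_mono, beside 5.32% of all genes. Against Nor_Bl_mono 1 of 6 did, Cybb, which was lower, where at this p 4.07% of all genes tested were lower and 1.75% higher. Cybb, the membrane subunit that carries the electrons, had 1005, 769.6 and 513 CPM in NMO_Br_mono and 1527, 1757 and 1098 CPM in Nor_Bl_mono. Its log2 fold change was -0.94 (SE 0.41, adjusted p = 0.708 in edgeR). In the plasminogen system, which S100A10 serves, 4 of 6 genes were tested. All 4 had a higher fitted level in NMO_Br_mono than in NMO_Bl_mono, beside 51.4% of all genes. There 0 of 4 had an unadjusted p under 0.05, beside 5.32% of all genes. Plau, which encodes urokinase, was at 27.1, 0 and 13.7 CPM in NMO_Br_mono and at 0 in Nor_Bl_mono. Its mean in NMO_Br_mono was 38.7-fold the mean floor of Nor_Bl_mono, a floor that covers counting error only. Against Nor_Bl_mono it had an unadjusted p of 0.0499 and an adjusted p of 0.708 in edgeR. It was the 1 of 4 tested genes higher at an unadjusted p under 0.05 there, beside 1.75% of all genes. Plau was present at 2.24 and 10.1 CPM in NMO_Bl_mono replicates 1 and 2.

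Of 8 myeloid transcription factors tied to S100 genes 7 were tested. Their median log2 fold change was 0.95 in NMO_Br_mono against NMO_Bl_mono, beside 0.05 over all genes. In that comparison 0 of 7 had an unadjusted p under 0.05, beside 5.32% of all genes. Cebpd, a factor of the acute response, was at 54.6, 93.2 and 87.3 CPM in NMO_Br_mono. All NMO_Bl_mono libraries were lower, with 3.92, 32.1 and 0 CPM, but it was at 99.7 CPM in 1 Nor_Bl_mono library. Hif1a, the oxygen-regulated factor, was at 230.5, 133 and 210.0 CPM in NMO_Br_mono, above the blood libraries, which lay between 46.8 and 129 CPM. Over library sizes alone, Hif1a in NMO_Br_mono replicate 2 (144 CPM) lay below NMO_Bl_mono replicate 3 (169 CPM). Against Nor_Bl_mono its log2 fold change was 1.41 (SE 0.64, unadjusted p = 0.0464, adjusted p = 0.708 in edgeR). It was the 1 of 7 tested factors higher at an unadjusted p under 0.05 there, beside 1.75% of all genes. Spi1, which encodes PU.1, was at 622, 268 and 245 CPM in NMO_Br_mono and overlapped both blood groups. Of the 7 tested factors 3 were higher in NMO_Br_mono without overlap against NMO_Bl_mono, beside 12.3% of all genes without overlap. Against Nor_Bl_mono 1 was higher and 1 lower without overlap, beside 15.4% of all genes.

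**Figure D5:**
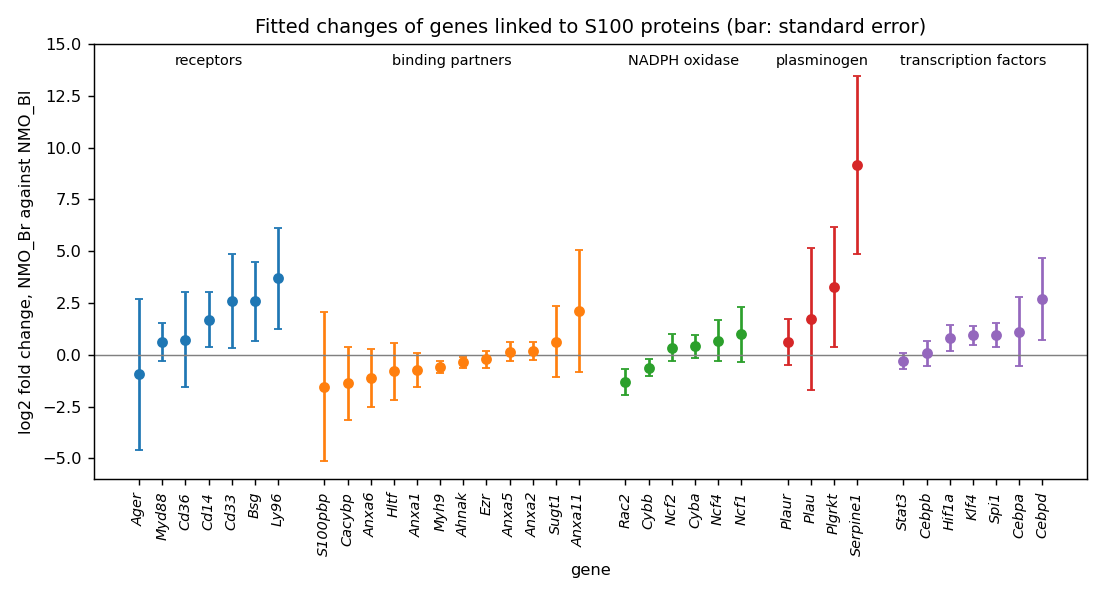
Fitted log2 fold change (y axis) of NMO_Br against NMO_Bl for 36 tested genes of 5 groups (x axis, sorted within each group), with the standard error as a bar. Receptors and transcription factors lie mostly above 0 and binding partners mostly below, and the bars of most genes reach 0.

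The genes whose level followed each S100 gene most closely over the 9 libraries were found by Pearson's r of log2(CPM + 1) among the genes with a mean of at least 50 CPM. All points share the same 9 libraries and 3 groups, so r is a description. For S100a8 they were Pkm (r = 0.964), Ctnnb1 (0.959) and Rcor1 (0.952). For S100a9 they were Apaf1 (0.895), Ccnd1 (0.849) and Nmi (0.830). S100a4 had Rps27a (0.918), Lamp1 (0.903) and Alox5ap (0.880). S100a6 had Nme2 (0.942), Ccl6 (0.913) and Ftl1 (0.912). S100a10 had Rexo2 (0.975), Zmat2 (0.968) and Clec4d (0.960). S100a11 had Calr (0.913) and Ywhae (0.890). S100a13 had Ccz1 (0.956) and Esf1 (0.949). S100a1 was under 50 CPM. Within the family the closest pair was S100a6 and S100a11 (r = 0.84, n = 9 libraries), while S100a8 and S100a9 had r = 0.23, with a library at 0 for each of them.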

How the data were processed

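Monocytes were sorted from the blood of normal mice and from the blood and brain of NMO mice, 3 libraries a group, and a library held cells of 5 pooled mice. For each, the authors made QuantSeq 3ʹ libraries, mapped the single-end reads with Bowtie2, used bedtools for counting (unique and multiple alignments), and deposited the raw read count of each gene symbol, with mm10 as the build in the submitters' processing notes. Tool versions, the annotation and the strand setting are not given in the sources used here, so values of near-identical or overlapping genes are uncertain. Groups came from the sample labels, and p-values measure the spread between pools.

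The 9 deposited count columns were used, with 23282 entries each. For 35 repeated symbols only the entry with the highest total was kept, which left 23238 symbols, of which 8796 had no count. Tests were made with the quasi-likelihood fit of edgeR 4.0.16 (glmQLFTest, filterByExpr, TMM factors of 0.800 to 1.46) in R 4.3.3 on all 9 libraries, over 10107 genes with Benjamini-Hochberg adjustment, without a block. Total counts were 7584649 to 10419647 a library, and the ribosomal RNA entry Rn45s took 28.4% to 43.6% of them. The ratio of S100a8 to S100a9 was tested with scipy 1.17.1. Alternatives were RLE factors, library sizes alone, counts without Rn45s, no filter, a minimum of 10 counts in all libraries, a fit of the compared groups only, a block for the replicate number, DESeq2 1.42.0, limma-voom 3.58.1 with quality weights, a robust fit and each library left out in turn. A fit without NMO_Bl_mono replicate 3 and NMO_Br_mono replicate 2 was added after seeing the data.

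The members and the gene lists were chosen with earlier results of these data known, and no list was tested as a set. All S100 members, the listed family, receptor, partner, oxidase, plasminogen and transcription factor genes, and for each member with a mean of at least 50 CPM its 3 closest genes by Pearson's r, could be named, and some of the last are not reported here. Promoter sequences are those of RefSeq (GRCm38.p6), and 7 of 8 members had one. Markers were named from fixed lists, and Ly6g of the neutrophil list had no entry under that symbol in the count tables.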

Additional observations from a re-analysis of the deposited data

How the results depend on the processing

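Apart from fits that left out 1 library in turn, 232 fitted changes of S100 genes kept their direction and their side of an adjusted p of 0.05, 4 moved past it and 19 turned. These counts include the fit without NMO_Bl_mono replicate 3 and NMO_Br_mono replicate 2. The cause was not tested for any of the changes that moved or turned. In NMO_Br_mono against NMO_Bl_mono, S100a4 became -0.040 with library sizes alone and -0.0087 with limma-voom, and S100a13 became 0.63 with limma-voom and 0.94 without both libraries with most genes at the floor. In NMO_Bl_mono against Nor_Bl_mono, S100a10 became 0.036 with library sizes alone, 0.076 with limma-voom and 0.24 without both libraries. S100a1 became -0.080, S100a9 -3.5 and S100a13 -0.42 with limma-voom, and without both libraries S100a9 became -0.52 and S100a13 -0.51. In NMO_Br_mono against Nor_Bl_mono, S100a13 became 0.054 with RLE factors and with DESeq2, 0.055 with at least 10 counts in every library, 0.21 with limma-voom and 0.43 without both libraries. Limma-voom moved the median log2 fold change of all genes to -0.65, 0.18 and -0.43 in the 3 comparisons, from 0.05, -0.16 and -0.12, so its changes are to be read relative to that shift.

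The S100 genes with an adjusted p under 0.05 in NMO_Br_mono against Nor_Bl_mono, 0 in the main fit, were 2 with no filter, 1 with DESeq2 and 1 without both libraries. The counts of all genes after adjustment in these settings follow below. With the unadjusted threshold, 0 S100 genes in NMO_Br_mono against NMO_Bl_mono became 1 with library sizes alone, with at least 10 counts in every library, with the robust fit and without both libraries, 2 with no filter and with DESeq2, and 4 with limma-voom. In NMO_Bl_mono against Nor_Bl_mono 0 became 1 with no filter and without both libraries. In NMO_Br_mono against Nor_Bl_mono 3 became 1 with at least 10 counts in every library, which leaves out S100a1, S100a8 and S100a9, and 1 with the robust fit. Of all genes in NMO_Br_mono against NMO_Bl_mono, 5.32% passed in the main fit, 9.44% with DESeq2 and 12.6% with limma-voom. Without both libraries 228 of 11168 genes were higher there and 526 lower at an unadjusted p under 0.05 in edgeR. For the remaining alternative fits the share of all genes at this threshold was not counted.

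All genes with an adjusted p under 0.05 in NMO_Br_mono against NMO_Bl_mono, 25 in the main fit, were 110 with no filter, 16 with at least 10 counts in every library, 7 with only the groups compared, 336 with DESeq2, 51 with limma-voom and 61 without both libraries. In NMO_Br_mono against Nor_Bl_mono they were 25, and 115, 366, 38 and 107 with no filter, DESeq2, the robust fit and without both libraries. Between the blood groups they were 0, 2 with no filter and 69 with DESeq2. Genes of the receptor, partner, oxidase, plasminogen, factor and further S100 lists with an unadjusted p under 0.05 in NMO_Br_mono against NMO_Bl_mono were 1, and 2 with RLE factors and without Rn45s, 4 with library sizes alone, 5 with no filter and the robust fit, 3 with DESeq2 and without both libraries, 8 with limma-voom and 0 with only the groups compared. Against Nor_Bl_mono they were 3, and 7 with no filter, 5 with only the groups compared, 10 with limma-voom and 8 with the robust fit and without both libraries. Between the blood groups they were 0, and 2 with DESeq2 and without both libraries and 3 with limma-voom.

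The replicate number was also used as a block. Of 9 pairs of libraries with the same number, 1 had a correlation of deviations over 0.1 (range -0.01 to 0.12). Yet 7 of 9 libraries correlated best with their own number. Correlations this weak, with 3 libraries a group, cannot settle whether the numbers pair the samples. With the block 0 S100 genes passed after adjustment in each comparison, 2 in place of 3 had an unadjusted p under 0.05 in NMO_Br_mono against Nor_Bl_mono, 0 in place of 1 list genes did in NMO_Br_mono against NMO_Bl_mono, and S100a1 (-0.036) and S100a6 (-0.011) turned between the blood groups.

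With 1 library left out in turn, S100 genes passing after adjustment ranged from 0 to 1 in NMO_Br_mono against Nor_Bl_mono, the 1 being S100a8 without NMO_Bl_mono replicate 3. At the unadjusted threshold they ranged from 0 to 2 in NMO_Br_mono against NMO_Bl_mono and from 0 to 1 between the blood groups. The share of all genes at that threshold was not counted for these fits. All genes after adjustment ranged from 15 to 36 and, against Nor_Bl_mono, from 11 to 62. List genes ranged from 0 to 5 and from 0 to 9. In NMO_Br_mono against NMO_Bl_mono S100a4 ranged from -0.38 to 0.42 and S100a13 from -0.86 to 0.50. In NMO_Bl_mono against Nor_Bl_mono S100a4 ranged from -0.12 to 0.29, S100a6 from -0.11 to 0.37, S100a9 from -0.52 to 1.97, S100a10 from -0.49 to 0.24 and S100a13 from -0.51 to 0.79. In NMO_Br_mono against Nor_Bl_mono S100a4 ranged from -0.26 to 0.53 and S100a13 from -0.42 to 0.43. The levels without Rn45s are higher throughout because that entry leaves the total. With 3 pools a group, low counts and a wide spread, a change the fit could not separate is not shown to be absent.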

Other observations

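The marker lists read beside the S100 genes gave the following counts in NMO_Br_mono against NMO_Bl_mono at an unadjusted p of 0.05 in the edgeR fit, where 1.48% of all genes tested were higher and 3.84% lower. Of 12 neutrophil genes tested, 2 were higher, Ngp and Mpo, and 1 lower, Retnlg. Of 8 microglia genes 5 were higher and 0 lower. Of 12 classical monocyte genes 0 were higher and 1 lower, Ly6c2, and of 9 non-classical monocyte genes 0 were higher and 1 lower. Of 8 lymphocyte and NK genes 4 were lower, 1 of them after adjustment. Of 6 platelet genes 4 were lower, 2 of them after adjustment, and of 5 erythroid genes 4 were lower. Of 2 genes of astrocytes and other brain cells 0 passed, and of 5 sorting markers 2 were lower, Ly6c2 and Ptprc.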
